A study of Mus musculus with 3 samples.

Results

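The 9 genes Pi16, Dpp4, Cd55, Sema3c, Anxa3, Bmp7, Efhd1, Akr1c18 and Limch1, used as markers of interstitial progenitors in connective tissue, were followed in mouse dorsal skin before and after wounding. They were chosen by name, and all 9 were found once each among the 27998 gene identifiers of the files. Earlier results of these data were known when they and the other gene lists were chosen. Counts of members or listed genes beside shares over all genes may in part restate that choice and are a description. Values are counts of unique molecular identifiers (UMIs, each standing for 1 captured RNA molecule) per gene and cell barcode, from droplet-based 3′ single-cell sequencing. The 3 libraries came from male C57BL/6 mice aged 7 to 9 weeks: non-lesional dorsal skin, and wound bed at day 2 and at day 7 after full-thickness wounds of 1.0 by 0.5 cm made on both sides of the back in telogen, the resting phase of the hair cycle. No genetic change or drug is named for any group. Each group is 1 library, and whether it pooled animals is not stated. No difference between libraries could therefore be set against a spread between replicates, and none was tested. Intervals are 95% and cover counting error only.

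Interstitial progenitors are fibroblast-lineage cells of the fascia and of the reticular interstitium around fat and vessels, known for Dpp4 and Pi16 and for giving rise to committed preadipocytes and to other fibroblasts. Dpp4, also called CD26, is a serine exopeptidase of the cell surface that trims peptide hormones and chemokines, Pi16 is a membrane-anchored glycoprotein of the CAP family, and Cd55 protects cells from complement. Sema3c and Bmp7 are secreted ligands, of neuropilin and plexin receptors and of BMP receptors. Anxa3 is a calcium-dependent phospholipid-binding protein, Efhd1 a calcium-binding protein of mitochondria, Akr1c18 a steroid dehydrogenase that inactivates progesterone, and Limch1 an actomyosin regulator.

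RefSeq promoter windows on GRCm38.p6 were found for 7 of the 9 genes, and not for Anxa3 and Bmp7. The 250 bases before the start site are printed for Efhd1 and Akr1c18, the members held most nearly by a single group of fibroblasts, and for Dpp4 and Cd55, which were spread more widely. Capitals mark matches to short motifs, searched on both strands. The letters TATAAA stood for the TATA motif, which positions the transcription machinery. The letters GGGCGG stood for the GC box bound by Sp factors. The letters CCAAT stood for the motif of NF-Y, and TGANTCA for that of AP-1 factors.
Efhd1, chr1:87264103-87264352, plus strand: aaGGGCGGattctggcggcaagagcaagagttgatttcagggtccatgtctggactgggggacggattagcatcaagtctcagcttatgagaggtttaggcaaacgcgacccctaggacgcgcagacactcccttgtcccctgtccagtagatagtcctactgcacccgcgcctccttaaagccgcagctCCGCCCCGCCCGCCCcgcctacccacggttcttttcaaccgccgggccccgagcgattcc
Akr1c18, chr13:4150647-4150896, minus strand: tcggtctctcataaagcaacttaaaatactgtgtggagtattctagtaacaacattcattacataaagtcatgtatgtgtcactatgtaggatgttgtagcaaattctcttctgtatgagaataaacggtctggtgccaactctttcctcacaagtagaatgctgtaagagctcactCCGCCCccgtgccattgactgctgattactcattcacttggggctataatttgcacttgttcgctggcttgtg
Dpp4, chr2:62412232-62412481, minus strand: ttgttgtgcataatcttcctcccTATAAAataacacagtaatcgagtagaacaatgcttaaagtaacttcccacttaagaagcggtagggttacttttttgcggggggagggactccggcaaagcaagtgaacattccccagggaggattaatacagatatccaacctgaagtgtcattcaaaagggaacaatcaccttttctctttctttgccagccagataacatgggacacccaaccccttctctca
Cd55, chr1:130462745-130462994, minus strand: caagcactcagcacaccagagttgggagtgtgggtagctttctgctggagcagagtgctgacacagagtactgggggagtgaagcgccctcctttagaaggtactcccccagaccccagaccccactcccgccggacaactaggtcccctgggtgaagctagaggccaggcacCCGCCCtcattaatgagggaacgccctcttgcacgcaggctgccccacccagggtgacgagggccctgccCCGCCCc
The Efhd1 window held 4 GC-box matches, of which neighbouring ones overlapped, the Cd55 window 2 and the Akr1c18 window 1. The Dpp4 window held 1 TATA match, at its far end, 227 bases before the start site, and whether it acts as a TATA box was not tested. In the Akr1c18 window 8 bases lie in an annotated exon. Of 32851 promoter windows of the same length, 32.7% held a GC-box match, 12.4% a TATA match, 33.8% an NF-Y match and 6.75% an AP-1 match, and none of the 4 printed windows held an NF-Y or AP-1 match. GC content was 60.8% for Efhd1, 41.6% for Akr1c18, 43.6% for Dpp4 and 64.0% for Cd55, against a median of 52.4% over all windows. The 4 sequences thus shared no matched motif in all of them.

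The libraries held 102345327 to 138046172 UMIs, and 9449, 7440 and 4930 barcodes were kept for non-lesional skin, day 2 and day 7. Pairs of libraries shared 14 to 24 barcodes, and no barcode occurred in all 3. Barcodes with at least 1 UMI of Pdgfra, the receptor that marks fibroblasts, numbered 4624, 3657 and 2403, or 48.9%, 49.2% and 48.7% of those kept, with Pdgfra itself at 212, 187 and 192 CPM (counts of a gene scaled to the same total of UMIs in every sum, the usual unit of count data) in them. Of these Pdgfra-positive barcodes 96.1%, 97.4% and 87.3% fell into fibroblast-like clusters, and 2.68%, 8.01% and 12.5% also held a UMI of Ptprc, Epcam or Pecam1, markers of leukocytes, epithelium and endothelium. Their median depth was 9822 UMIs in non-lesional skin, 28491 at day 2 and 26986 at day 7, so shares of barcodes are given after thinning each barcode to 3000 UMIs, which left 4432, 3552 and 2306. The choice of Pdgfra-positive barcodes was made before thinning and so was not matched for depth. It left out 2118 of 6562 fibroblast-like cells in non-lesional skin, 605 of 4166 at day 2 and 391 of 2488 at day 7. The 8 fibroblast markers, all detected in each library, summed to 126987 CPM in non-lesional skin, 32556 at day 2 and 73926 at day 7. Pericyte and smooth muscle markers summed to 129, 96.8 and 1445 CPM, and keratinocyte markers to 945, 11.3 and 124 CPM, with none of either list at 0. The part of these shifts in the results was not tested. In sums over barcodes, fewer cells with a gene and less RNA per cell cannot be told apart.

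All 3 surface markers were lower in both wound libraries than in non-lesional skin. Pi16 (ENSMUSG00000024011, GRCm38 chromosome 17, 29317680 to 29330593) stood at 1050.0 CPM in Pdgfra-positive barcodes of non-lesional skin, 223 at day 2 and 102 at day 7. Its level thus stepped down at each library, 4.70-fold (ratio 0.213, 0.209 to 0.216) and then 10.3-fold (0.0975, 0.0951 to 0.0999) below non-lesional skin. Dpp4 (ENSMUSG00000035000, chromosome 2, 62330073 to 62412231) stood at 203, 26.2 and 23.6 CPM, with wound values close to each other, and was 7.76-fold and 8.60-fold lower. Cd55 (ENSMUSG00000026399, chromosome 1, 130439027 to 130462744) stood at 172, 36 and 52.2 CPM, lowest at day 2, and was 4.78-fold and 3.29-fold lower. At 3000 UMIs a barcode, Pi16 was found in 47.7% of barcodes (46.3 to 49.2), 31.4% (29.9 to 33.0) and 14.2% (12.8 to 15.7). Dpp4 was found in 39.4%, 6.53% and 7.72%, and Cd55 in 36.4%, 9.15% and 14.7%. The share with Pi16 at day 2 lay nearer to that of non-lesional skin than its level did.

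The secreted ligands were lowest at day 2 and stood higher at day 7. Sema3c (ENSMUSG00000028780, chromosome 5, 17574281 to 17730268) stood at 187 CPM in non-lesional skin, 37.8 at day 2 and 101 at day 7. At day 7 it was 1.85-fold lower than in non-lesional skin, a log2 ratio of -0.85 with a pseudocount of 5 CPM, and so the only member short of a 2-fold difference. Bmp7 (ENSMUSG00000008999, chromosome 2, 172868012 to 172940321) stood at 47.2, 2.07 and 17.4 CPM, 22.8-fold lower at day 2 and 2.72-fold lower at day 7. Between the wound libraries Sema3c was higher at day 7 by a ratio of 2.68 (2.58 to 2.78) and Bmp7 by 8.40 (7.28 to 9.73). The Bmp7 ratio rested on 1 unnamed cluster led by Wif1, without which it was 1.71 (1.42 to 2.06), a step chosen after the values had been seen.

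The 4 intracellular members differed in how much remained. Anxa3 (ENSMUSG00000029484, chromosome 5, 96793339 to 96845966) stood at 313, 117 and 39.5 CPM, a stepwise order like that of Pi16. Efhd1 (ENSMUSG00000026255, chromosome 1, 87264363 to 87310839) stood at 46.0, 1.61 and 4.31 CPM, and Limch1 (ENSMUSG00000037736, chromosome 5, 66745827 to 67057158) at 29.1, 1.53 and 1.47. These were 28.6-fold and 19.0-fold lower at day 2, and Limch1 did not differ between the wound libraries beyond counting error (ratio 0.955, 0.741 to 1.23). Akr1c18 (ENSMUSG00000021214, chromosome 13, 4132615 to 4150654) stood at 57.6, 6.76 and 9.20 CPM. Reads of Akr1c18 could be split with related genes of its family, of which Akr1c14 stood at 2.86, 0.110 and 2.08 CPM and Akr1c13 at 0.326, 0.468 and 0.419, each far under Akr1c18 in non-lesional skin. At 3000 UMIs Efhd1 was found in 13.2%, 0.676% and 1.43% of barcodes, Akr1c18 in 11.8%, 1.63% and 2.21%, and Limch1 in 8.30%, 0.338% and 0.564%.

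**Figure D1:**
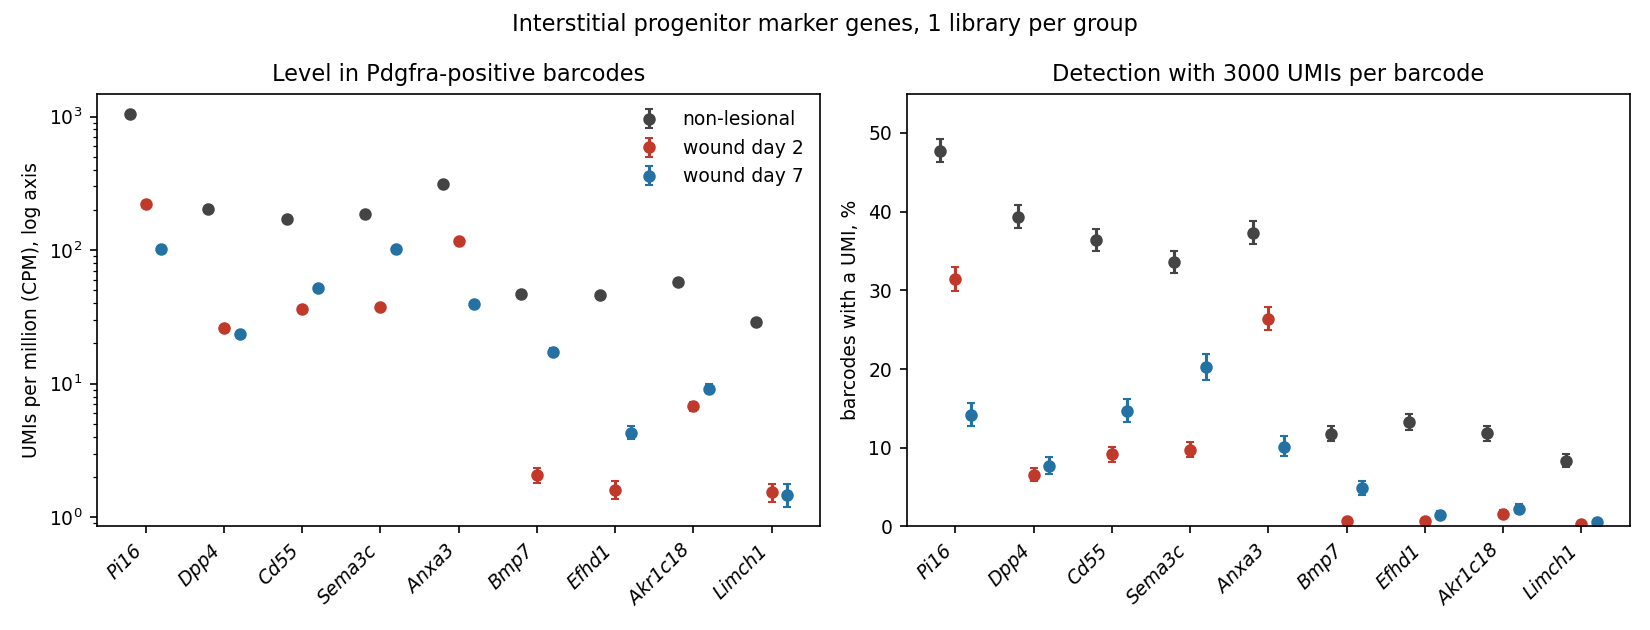
The 9 members in Pdgfra-positive barcodes of the 3 libraries, in CPM on a log axis (left) and as the percent of barcodes with a UMI after thinning to 3000 UMIs (right); bars are 95% counting intervals and there is 1 library per group. The non-lesional point is the highest for each gene in both panels; Sema3c has the day 7 point nearest to it in level (101 against 187 CPM).

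Read over all genes, 9 of 9 members were at least 2-fold lower at day 2 than in non-lesional skin, where 7.41% of 16247 genes were that much lower and 9.81% that much higher. At day 7 8 of 9 were lower and 0 higher, where 4.61% of 16327 genes were lower and 7.13% higher. The median log2 ratio of the members was -2.39 at day 2 and -2.40 at day 7, against 0.03 and 0.10 over all genes. Both comparisons share the non-lesional library. Between the wound libraries 2 members were lower at day 7, Pi16 with a log2 ratio of -1.09 and Anxa3 with -1.45, and 2 were higher, Sema3c with 1.31 and Bmp7 with 1.66 (0.27 without the Wif1-led cluster). Of 16557 genes 1.52% were lower and 3.3% higher there. In CPM summed over barcodes thinned to 3000 UMIs, only Anxa3 stayed at least 2-fold lower at day 7 than at day 2.

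Whether the members lay in the same cells was asked by co-detection, the number of barcodes holding both genes of a pair divided by the number that the product of their shares gives. In non-lesional skin all 36 pairs had a ratio above 1, with a median of 1.81, and 28 were at 1.5 or more, a level that 0.345% of gene pairs in the same range of shares reached. The ratio was highest for Akr1c18 with Limch1 (3.63) and Efhd1 with Akr1c18 (3.58), and lowest for Cd55 with Bmp7 (1.26, 1.10 to 1.43). The rarer members were nested within the commoner ones. Of 524 barcodes with Akr1c18, 98.7% also held Pi16 and 95.4% Anxa3, where Pi16 was in 40.9% of the barcodes without Akr1c18. Of 586 barcodes with Efhd1, 97.4% held Pi16 and 93.5% Anxa3. With Bmp7 the difference was smaller, since Pi16 was in 61.6% of barcodes with it and 45.9% of those without.

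At day 2 fewer pairs could be read. Only 18 pairs gave a product of at least 5 barcodes, their median ratio was 1.29, and 4 reached 1.5, where 3.84% of gene pairs did. The highest was Dpp4 with Sema3c at 2.16 (1.60 to 2.86), followed by Pi16 with Dpp4 at 1.82 (1.53 to 2.16). Akr1c18 with Anxa3 had a ratio of 0.980 (0.549 to 1.62) and with Pi16 1.26 (0.799 to 1.89), and neither interval left out 1. At day 7 the 20 usable pairs had a median of 2.63, and 16 reached 1.5, where 6.32% of gene pairs did. Pi16 with Akr1c18 stood at 5.12 (3.60 to 7.05) and Anxa3 with Akr1c18 at 5.02 (3.28 to 7.36). Pi16 with Dpp4 stood at 3.49 (2.80 to 4.30). The share of the commoner gene limits how high a ratio can be, so ratios and their medians do not compare between libraries. Of 51 day 7 barcodes with Akr1c18, 72.5% held Pi16, where 98.7% of 524 did in non-lesional skin. Pairs with Bmp7 were divided at day 7, with ratios of 0.398 with Sema3c (0.182 to 0.755), 0.731 with Cd55 and 0.792 with Anxa3. Only the first of these 3 intervals lay wholly below 1. The other usable Bmp7 pairs lay above 1, with Dpp4 at 1.97 (1.15 to 3.15) and with Pi16 at 1.20 (0.720 to 1.87).

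**Figure D2:**
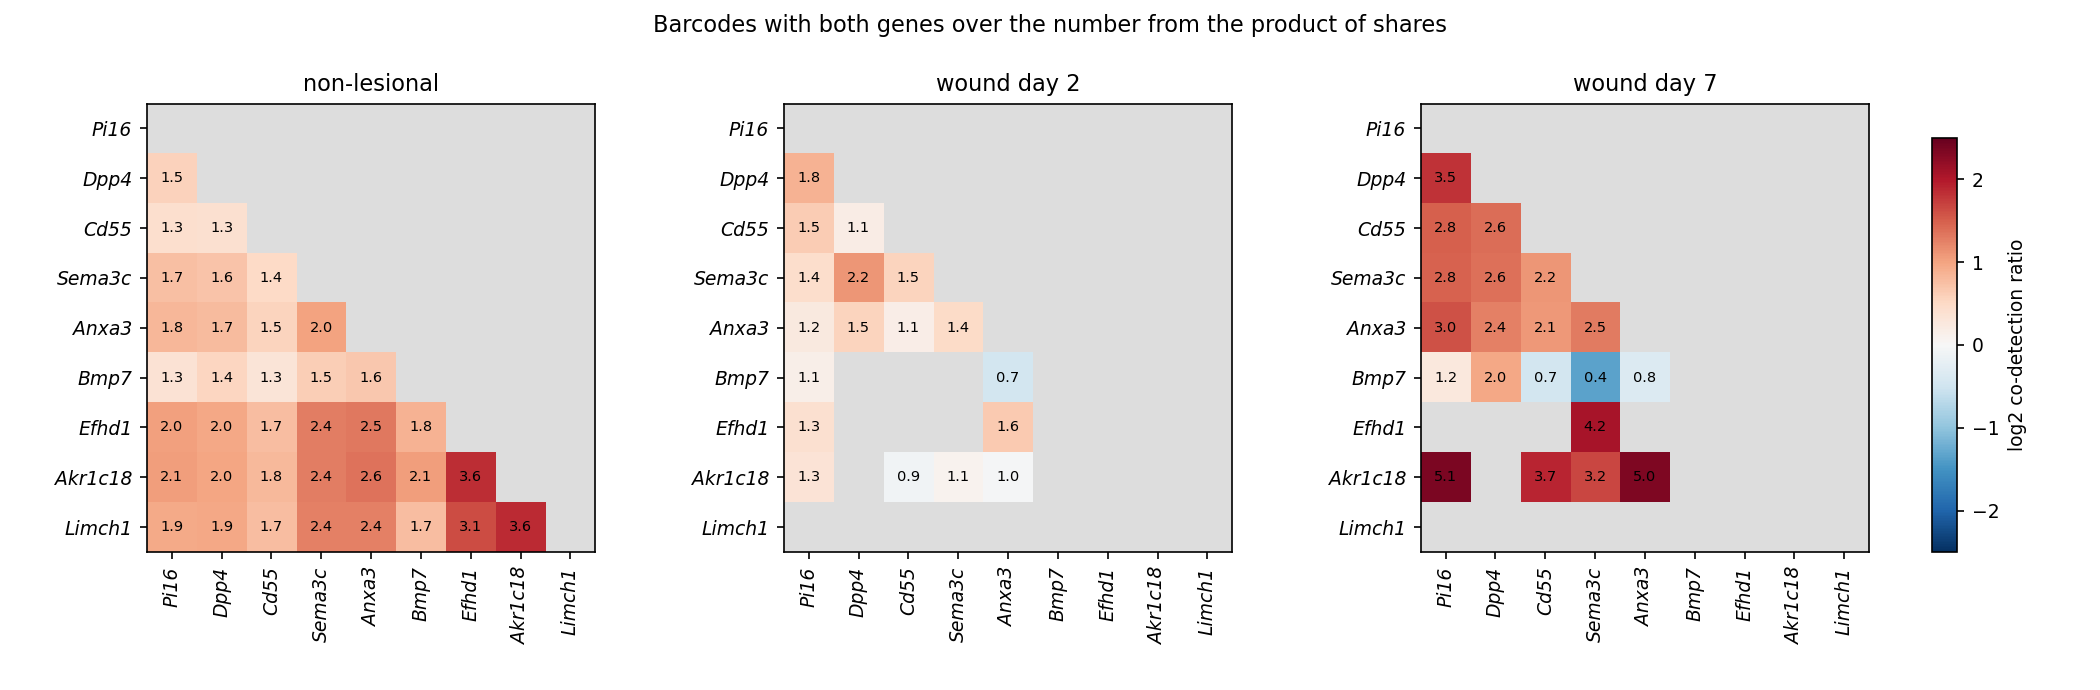
Co-detection ratio of each pair of members in Pdgfra-positive barcodes thinned to 3000 UMIs, printed in each cell and coloured by its log2, in non-lesional skin and at wound days 2 and 7; grey cells in the lower triangle are pairs with a product of shares under 5 barcodes, and the upper triangle is not used. Values in non-lesional skin lie between 1.26 and 3.63 and those at day 2 between 0.729 and 2.16. Those at day 7 lie above 2 except for pairs with Bmp7. Ratios do not compare between libraries, since the share of the commoner gene limits them.

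The number of members in a barcode was counted as well. At least 4 members were found in 29.7% of non-lesional barcodes (28.3 to 31.0), where the product of shares gives 18.5%, and in 9 barcodes all 9 were found. At day 2 1.13% of barcodes (0.806 to 1.53) held at least 4, where the product gives 0.284%, and at day 7 4.55% (3.74 to 5.49), where it gives 0.304%. No day 2 barcode held more than 5 members, and day 7 barcodes held up to 7.

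**Figure D3:**
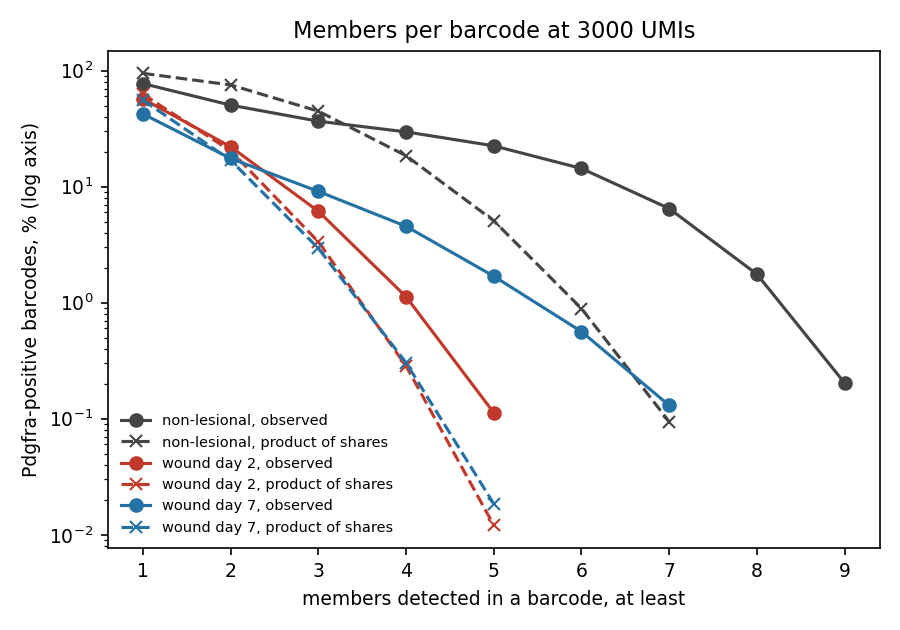
Percent of Pdgfra-positive barcodes (log axis) with at least the number of members on the horizontal axis, after thinning to 3000 UMIs; circles with solid lines are observed shares and crosses with dashed lines what the product of the single shares gives, drawn as far as the axis reaches. For 4 members or more, the observed line lies above its dashed line in each library, at 29.7% against 18.5% in non-lesional skin.

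Clusters, made without the 9 members and the other gene lists used here, placed the nesting in 1 group of cells. In non-lesional skin a fibroblast-like cluster of 1718 cells, led by Smpd3 and Sult1e1, made up 26.2% of fibroblast-like cells. It held 99.1% of their Akr1c18 UMIs, 96.6% of Efhd1, 93.0% of Limch1, 86.2% of Anxa3, 84.0% of Pi16, 76.6% of Sema3c and 65.4% of Dpp4, but only 48.0% of Cd55 and 45.9% of Bmp7. Pi16 stood at 3948 CPM there, at 388 in the cluster led by Myoc, at 150.3 in that led by Wfdc12 and at 121 in that led by Coch. Dpp4 stood at 581, 108, 92.7 and 14.4 CPM in the same clusters, and Cd55 at 375, 171, 103 and 54.5. Akr1c18 stood at 248 CPM against 0.335 to 1.42 in the other 3. Since gene expression made the clusters, these values are a description.

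Co-detection inside single clusters was then read. The 1300 Smpd3-led barcodes of at least 3000 UMIs gave a median co-detection ratio of 1.03 over the 36 pairs, from 0.974 to 1.18, but Pi16 was in 1245 and Anxa3 in 1211 of them, so that pairs with these genes could hardly rise above 1. The Wfdc12-led cluster gave 0.956 over 14 pairs, and the Myoc-led cluster 1.30 over 20 pairs, up to 2.23. At least 4 members were found in 89.8% of barcodes of the Smpd3-led cluster, in 12.6% of the Myoc-led cluster and in 0.491% of the Wfdc12-led cluster. Of the 1315 non-lesional barcodes with at least 4 members, 88.7% lay in the Smpd3-led cluster.

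No fibroblast-like cluster at day 2 held such a concentration. The cluster led by Thbd and Csf3 (2548 cells) had Pi16 at 170.2 CPM and Anxa3 at 98.0, and the cluster led by Cxcl13 and Saa3 (1569 cells) had them at 337 and 149. Their shares of the day 2 Pi16 UMIs were 49.8% and 49.6%, for 61.2% and 37.7% of the cells. Bmp7 stood at 2.02 and 2.08 CPM, under every non-lesional fibroblast-like cluster, where it ranged from 15.1 to 78.2. At day 7 most members were again concentrated, in a cluster led by Dlk1, Mgp and H19 of 684 cells or 27.5% of fibroblast-like cells. It held 89.5% of Efhd1 UMIs, 86.4% of Pi16, 86.2% of Akr1c18, 79.7% of Dpp4, 68.2% of Sema3c, 62.3% of Cd55 and 57.2% of Anxa3. Pi16 stood at 513 CPM there and at 7.92 in the larger cluster led by Prss35 and Tnn (1577 cells), and Sema3c at 390 and 38.7. The Dlk1-led cluster thus stood well below the Smpd3-led cluster of non-lesional skin in Pi16, Dpp4 (97.9 CPM) and Limch1 (2.28 CPM). Within it the median co-detection ratio was 1.37 over 21 pairs, from 1.13 to 2.16. Limch1 was not concentrated there. Of 13 thinned Pdgfra-positive day 7 barcodes with Limch1, 7 lay in the Wif1-led, 5 in the Prss35-led and 1 in a lymphatic endothelial-like cluster.

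Bmp7 at day 7 lay mostly elsewhere. Of 112 thinned Pdgfra-positive barcodes with Bmp7, 91 lay in a cluster of 269 cells led by Wif1, Corin and Lrrn1, which fitted none of the named classes and is left unnamed. Bmp7 stood at 421 CPM there (398 to 445), while Pi16 stood at 12.1 and Sema3c at 1.38. Without that cluster the day 7 level of Bmp7 in Pdgfra-positive barcodes was 3.54 CPM (3.11 to 4.01) in place of 17.4, above the 2.07 CPM of day 2 (1.81 to 2.36). In non-lesional skin an unnamed cluster of 120 cells led by Slc26a7 had 123 CPM of Bmp7, above the 78.2 of the Smpd3-led cluster.

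**Figure D4:**
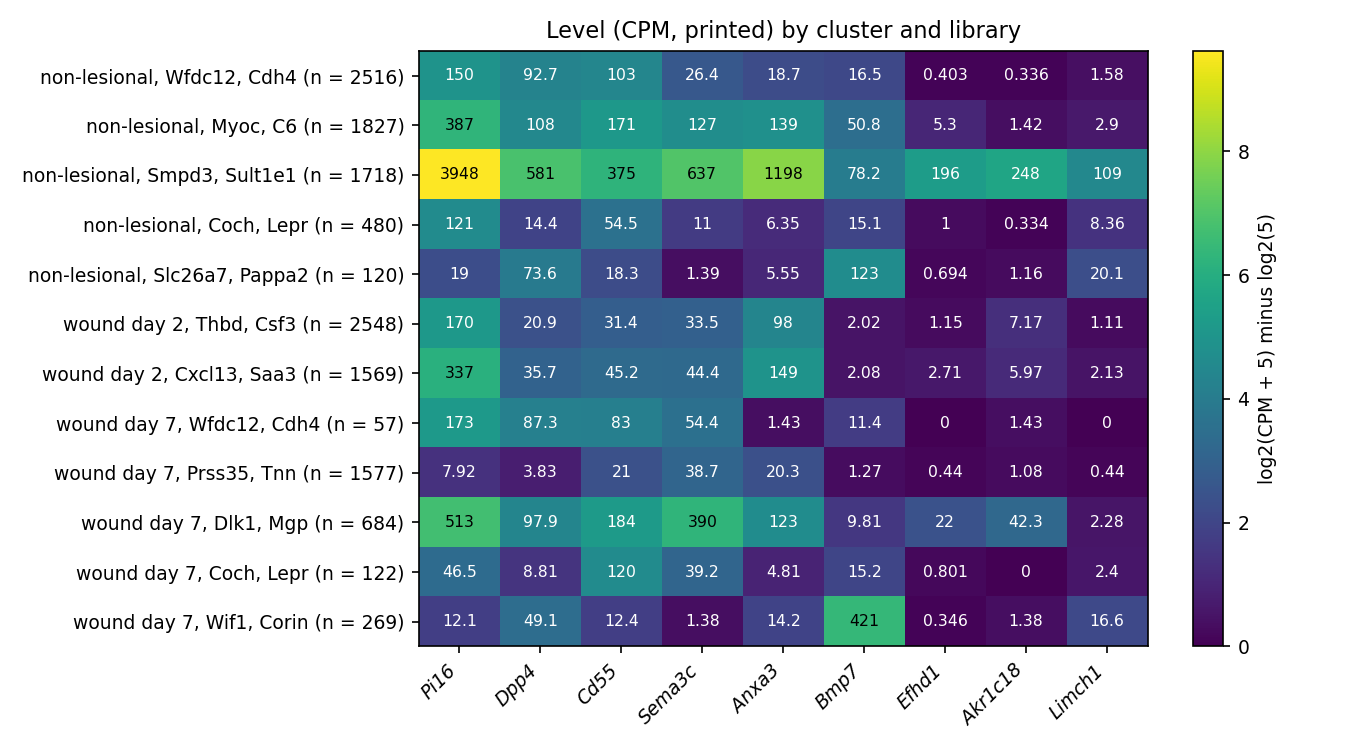
Level of each member, printed in CPM and coloured by log2(CPM + 5) minus log2(5), in fibroblast-like clusters and the 2 unnamed clusters with high Bmp7, by library and named by their first 2 leading genes, with the number of cells. The non-lesional cluster led by Smpd3 is the highest for every member except Bmp7, which is highest at 421 CPM in the day 7 cluster led by Wif1; levels compare within a gene only.

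The wound values were also set against the other non-lesional cells, with the Smpd3-led cluster left out of all libraries, a step chosen after the values had been seen and because of them. That cluster held 1718 cells in non-lesional skin, 0 at day 2 and 4 at day 7. The step thus took cells almost only from non-lesional skin, and ratios of members concentrated in that cluster could only rise. Libraries were clustered together without correction, and other fibroblast-like clusters also lay mostly in 1 library. The Thbd-led cluster, for example, held 2548 cells at day 2 and 9 at day 7. Whether the wound libraries held cells matching the Smpd3-led cluster was not tested. At day 2 3 of 9 members then stayed at least 2-fold lower: Dpp4 with a log2 ratio of -1.63, Cd55 with -1.52 and Bmp7 with -2.62. Pi16 did not differ (0.02), while Anxa3 (1.00) and Akr1c18 (0.94) stood higher at day 2. At day 7 Pi16 (-1.09), Dpp4 (-1.77) and Cd55 (-1.04) stayed at least 2-fold lower, and Akr1c18 (1.17) was at least 2-fold higher. Sema3c (0.78) and Efhd1 (0.32) also had positive ratios at day 7, short of 2-fold. Dpp4 and Cd55 stayed lower in both wound libraries against these other non-lesional cells. The rise of the other ratios was built into the step and is not a separate result.

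Barcodes with both Pi16 and Dpp4 made up 27.9% of thinned Pdgfra-positive barcodes in non-lesional skin (1236 of 4432, 26.6 to 29.2), 3.74% at day 2 (133 of 3552, 3.14 to 4.42) and 3.82% at day 7 (88 of 2306, 3.07 to 4.68). The wound libraries did not differ beyond counting error. Of the 1236, 80.6% lay in the Smpd3-led cluster, while of the 88 at day 7 86.4% lay in the Dlk1-led cluster. The 133 at day 2 were divided between the Thbd-led cluster (41.4%) and the Cxcl13-led cluster (58.6%).

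What else these double-positive barcodes held was compared with Pdgfra-positive barcodes with neither gene. In non-lesional skin all 7 other members were at least 2-fold higher, where 5.62% of 11925 genes were, from Bmp7 (ratio 2.38, 1.96 to 2.91) to Akr1c18 (339, 115 to 1647, resting on 3 UMIs in the negative barcodes). The genes with the largest ratios beside members were Smpd3, a sphingomyelinase (463 against 5.53 CPM), Sfrp2, a secreted Wnt modulator (1078 against 24.3), Aldh1a3, an enzyme of retinoic acid synthesis (147 against 1.11), Pla1a (231 against 4.61) and Sema3e (128 against 1.84). The lowest included Apoe, a lipid carrier (48.3 against 588 CPM), the agouti gene, Gal, Trps1, Ndufa4l2, Enpp2, Sparcl1 and Ctla2a.

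At day 2 only Sema3c (ratio 3.02, 2.03 to 4.36) and Akr1c18 (3.19, 1.09 to 7.72) of the 7 were at least 2-fold higher in double-positive barcodes, where 1.91% of 11495 genes were. The leading genes there were the chemokine Cxcl13 (785 against 92.9 CPM), Adm, Lbp, Ifi27l2a, Col14a1, the acute-phase gene Saa3, Adamts15 and Lrrn4cl. At day 7 5 of 7 were higher, Cd55, Sema3c, Anxa3, Efhd1 and Akr1c18, where 5.09% of 12068 genes were, while Bmp7 stood at 15.2 against 27.9 CPM and Limch1 had no UMI in the 88 barcodes, which allows a ratio of up to 8.55. Leading genes were the ferritin receptor Scara5 (201 against 4.06 CPM), Clec3b (1273 against 80.5), Lbp, complement C3, the hyaluronan synthase Has1 (2299 against 174), elastin (Eln) and Islr2. Lower there were the contractile gene Acta2 (37.9 against 1182 CPM), tenascins Tnc (26.5 against 838) and Tnn, Crabp1 and Spp1, and Fabp4, Cyp26b1 and Enpp2 had no UMI in those barcodes, which allows ratios of up to 0.0714, 0.10 and 0.111.

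Across cell classes of non-lesional skin, 7 of the 9 members had their highest level in fibroblast-like cells, from Pi16 (1088 CPM, 13.8 times the next class) to Bmp7 (39.4 CPM, 1.51 times keratinocyte-like cells). This held for classes given to whole clusters, whereas with each cell named by its own markers 0 of 9 were highest there. That naming left 5516 fibroblast-like cells in place of 6562 and added small classes, such as 175 skeletal muscle-like and 138 adipocyte-like cells. Which classes were then highest is not given here. In the classes given to whole clusters, Limch1 stood at 902 CPM in Schwann- or melanocyte-like cells (830 to 979) against 27.2 in fibroblast-like cells. Efhd1 stood at 173 against 46.9. Sema3c was also found in pericyte- or smooth muscle-like cells (87.9 CPM) and keratinocyte-like cells (81.9), and Anxa3 in pericyte- or smooth muscle-like cells (102).

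In the wound libraries 4 of 9 members were highest in fibroblast-like cells at day 2 and 1 of 9, Pi16, at day 7. The number of classes compared was 6 in non-lesional skin and at day 2 but 11 at day 7. For all 5 of these wound values the interval overlapped that of the second class. The second class was erythroid-like for Pi16 at both days and for Cd55 and Efhd1 at day 2. At day 2 erythroid-like cells held Col1a1 at 79.6% and Dcn at 87.3% of the fibroblast-like level. Most members highest in another class, such as Dpp4 at day 2 and Anxa3 at day 7, also overlapped their second class. Dpp4 was highest in dendritic-like cells, at 79.7 CPM at day 2 and 70.8 at day 7 against 25.9 and 23.0 in fibroblast-like cells. Dendritic-like cells had it at 36.7 CPM in non-lesional skin. Anxa3 was also highest in dendritic-like cells, at 160 CPM at day 2 and 140.1 at day 7, with neutrophil-like cells at 125 at day 2 and endothelial-like cells at 115 at day 7. Limch1 stood at 86.9 CPM in lymphatic endothelial-like and 60.2 in Schwann- or melanocyte-like cells at day 7, and Bmp7 at 38.7 in keratinocyte-like cells. Bmp7 in T, NK or innate lymphoid-like cells stood at 24.6, 15.6 and 24.6 CPM across the libraries, the middle value from 3 UMIs. Sema3c did not separate fibroblast-like from monocyte- or macrophage-like cells at day 2 (37.3 against 40.0) or from Schwann- or melanocyte-like cells at day 7 (107 against 117). Akr1c18 was highest at day 7 in erythroid-like cells, which held Col1a1 at 64.4% of the fibroblast-like level and Pi16 at 93.7% of it.

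Some Pi16 was also counted in classes other than fibroblasts. In neutrophil-like cells at day 2 it stood at 90.7 CPM (78.3 to 105), 40.1% of the fibroblast-like level, where Col1a1 stood at 17.1%, Pdgfra at 8.17% and Dcn at 7.06% of theirs. It was spread over 168 of 2038 barcodes, with at most 3 UMIs in 1. At 1000 UMIs a barcode, which 809 of the neutrophil-like and 4110 of 4166 fibroblast-like cells reached, Pi16 was found in 6.67% of the former (5.05 to 8.62) and 15.8% of the latter, while Pdgfra was found in 1.48% and 15.8%. The unthinned shares with Pi16 were 8.24% and 63.9%, at median depths of 887.5 and 26249 UMIs. Dpp4 was found in 0.371% of these neutrophil-like and 2.04% of fibroblast-like cells. The day 2 share of fibroblast-like cells with Pi16 is therefore read against a neutrophil-like share of about 6.67%. In T, NK or innate lymphoid-like cells of non-lesional skin, 1 barcode held 99 of the 119 Pi16 UMIs. At day 7 Pi16 stood at 94.4 CPM in T, NK or innate lymphoid-like and 86.8 in neutrophil-like cells. These were 85.1% and 78.2% of the fibroblast-like 111 CPM, where Pdgfra stood at 15.0% and 18.9% of its own. Dendritic-like cells had 44.6%, and the other classes apart from erythroid-like cells 19.1% or less. The pooled day 7 Pi16 level of fibroblast-like cells was thus close to that of some other classes. That pool joined clusters that differed, since of 327 thinned Pdgfra-positive barcodes with Pi16, 238 lay in the Dlk1-led and 34 in the Prss35-led cluster. Col1a1 stood at 29.6% of the fibroblast-like level in the T, NK or innate lymphoid-like and 17.7% in the neutrophil-like cells at day 7. How the Pi16 UMIs of these classes were spread over barcodes is not given here.

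**Figure D5:**
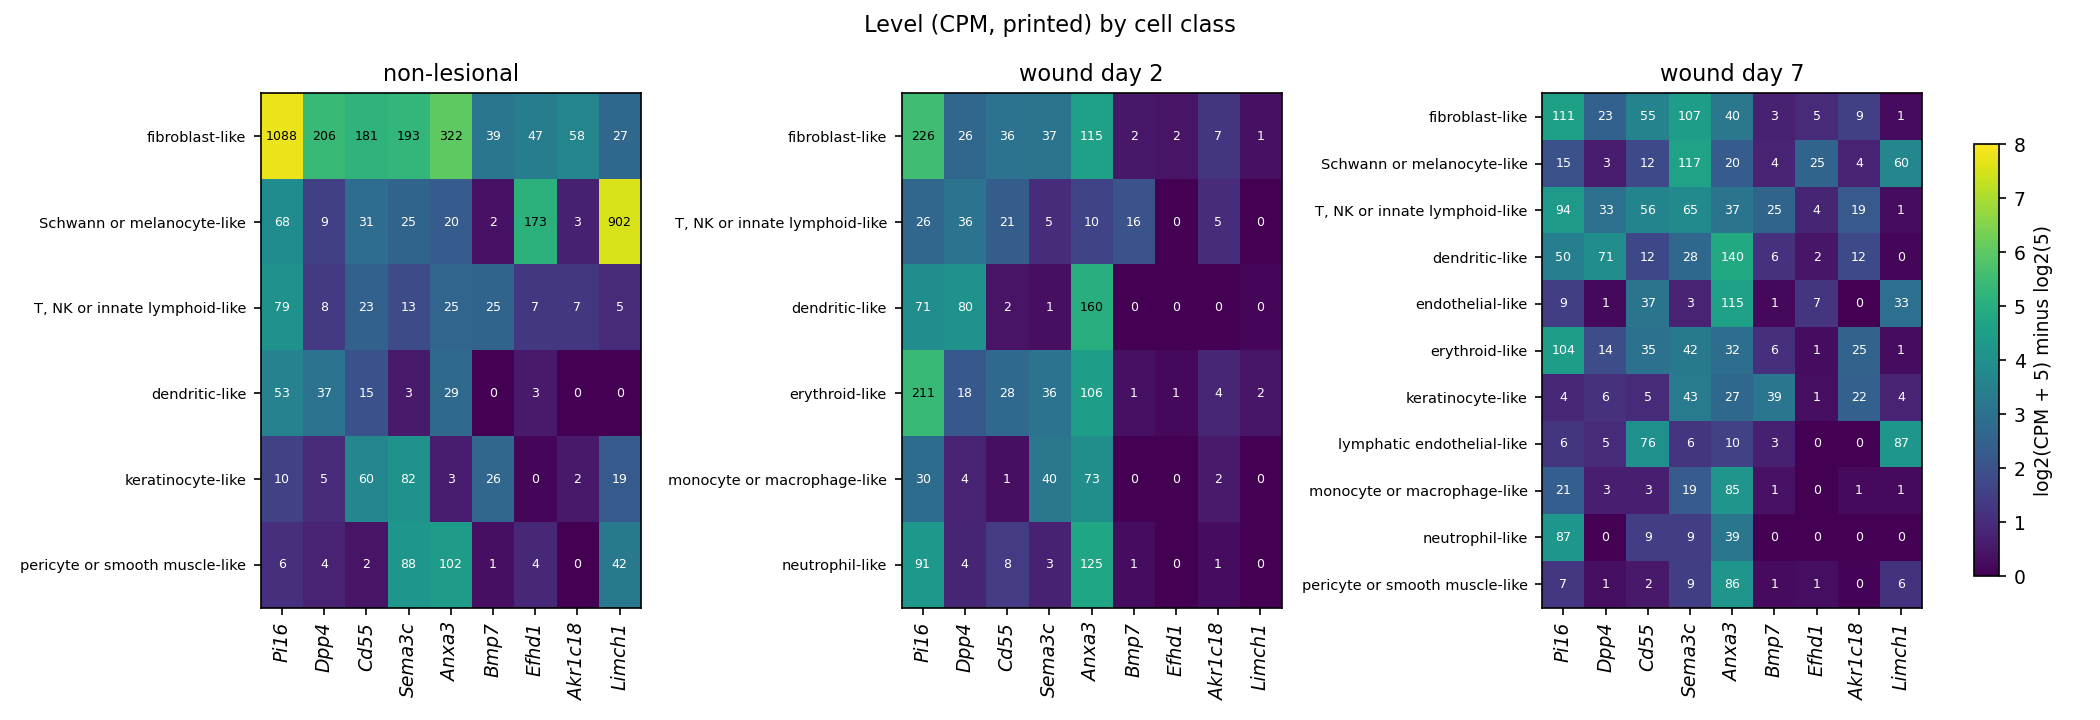
Level of each member by cell class in the 3 libraries, printed in CPM and coloured by log2(CPM + 5) minus log2(5), for classes of at least 50 cells. With classes given to whole clusters, the fibroblast-like row is the highest for 7 of 9 members in non-lesional skin, 4 of 9 at day 2 and 1 of 9 at day 7 (0, 3 and 2 with each cell named by its own markers); Limch1 at 902 CPM in Schwann- or melanocyte-like cells is the largest value outside it.

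Other genes of interstitial progenitors, a list of 20 that leaves out the 9 members, were read against the same shares over all genes, 7.41% lower and 9.81% higher at day 2 and 4.61% and 7.13% at day 7. In Pdgfra-positive barcodes, 8 of the 20 stood at least 2-fold below non-lesional skin at day 2 and 1 above it (median log2 ratio -0.79), and 12 below and 0 above at day 7 (-1.72). Clec3b, a plasminogen-binding secreted protein, stood at 1073 CPM in non-lesional skin, 45.8 at day 2 and 164 at day 7, and Smpd3 at 126, 1.55 and 0.544. Igfbp6 stood at 1257 CPM and 149 at day 2, and Pcolce2, a procollagen processing enhancer, at 463 and 23.1 at day 7. Il33, an alarmin, went the other way, at 33.9 CPM in non-lesional skin, 538 at day 2 and 40.7 at day 7. In double-positive against double-negative barcodes, 18 of 20 measured genes of this list were at least 2-fold higher in non-lesional skin, where 5.62% of all genes were. At day 2 5 of 19 were, against 1.91% of all genes, and at day 7 15 of 18, against 5.09%.

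Committed preadipocyte genes were divided in the wound libraries against non-lesional skin. At least 2-fold, 6 of 14 were lower and 2 higher at day 2 (median -0.35), and 4 lower and 2 higher at day 7 (-0.36). Over all genes 7.41% were lower and 9.81% higher at day 2, and 4.61% and 7.13% at day 7. Those higher at day 7 were Fabp4, a lipid chaperone of fat cells, and Dlk1, an inhibitor of fat cell formation. Fabp4 stood at 5.51, 37.1 and 198 CPM, and Dlk1 at 0.365, 0.239 and 29.2. Of 9 genes of F3-positive stroma, 6 were lower and 1 higher at day 2, and 4 lower and 2 higher at day 7. F3 itself, tissue factor, was among the higher at both days, at 31.8, 239 and 98.3 CPM. In double-positive barcodes of non-lesional skin 6 of 13 measured preadipocyte genes were lower by 2-fold or more, where 4.29% of genes were, and 0 were higher, where 5.62% were.

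Of 14 receptors and partners of the members, 1 was lower and 1 higher at day 2, and 0 lower and 2 higher at day 7, counts near the shares over all genes (7.41% and 9.81%, 4.61% and 7.13%). Between the wound libraries 4 of 14 were higher at day 7, where 3.3% of genes were: Nrp2, Adgre5, Plxnd1 and Cd59a. Nrp2, a neuropilin that binds class 3 semaphorins, stood at 71.1 CPM in non-lesional skin, 8.34 at day 2 and 91.9 at day 7, with its lowest value at day 2 as for its ligand Sema3c. Nrp1 stood at 76.2, 105 and 140.3 CPM. Bmpr1b, a type I BMP receptor, had 1 UMI in non-lesional skin and stood at 9.13 and 11.1 CPM in the wound libraries, and Adgre5, a binding partner of Cd55, stood at 5.80, 4.59 and 21.2. Of 13 other BMP pathway genes, 5 were lower and 1 higher at day 2, and 5 lower and 0 higher at day 7. Bmp4 stood at 84.6, 2.72 and 26.2 CPM, the antagonist Grem1 at 146, 3.84 and 68.8, and Id3, a BMP target, at 948, 285 and 275.

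Across the 23 sums of a class in a library, the genes most like the mean of the 9 members were Scara5 (Pearson r of 0.93), Arhgap20 (0.91), Nova1 (0.91), Opcml (0.89), Fmo2 (0.85) and Mmp27 (0.85), among 11186 genes. The highest sum for each was that of non-lesional fibroblast-like cells. Points from 1 library share its depth and free RNA. A member's own r with the mean of the other 8 was lower, from 0.06 for Anxa3 and 0.08 for Limch1 to 0.69 for Akr1c18.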

How the data were processed

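Single-cell 3′ RNA libraries of non-lesional skin, day 2 and day 7 wound bed were measured, 1 per group. The authors deposited UMI counts, not normalized, for each gene and barcode. Per the file headers they were written by Cell Ranger 5.0.0, while the submitters' processing notes name Cell Ranger 3.0.2, Seurat 3.0 and mm10, a difference that was not resolved. How barcodes were called as cells is not recorded there.

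Barcodes were kept with at least 200 genes and at most 10% mitochondrial UMIs. Because Scrublet's own threshold marked 373, 1 and 0 barcodes, its highest scores, 0.8% per 1000 barcodes, were removed as doublets (848, 505 and 212). Leiden clustering at resolution 1 (scanpy 1.11.5, Python 3.11.15) left out the members and listed genes, and classes, called "-like", came from marker lists. Class shares therefore rest on rebuilt names. The libraries were clustered together without correction for differences between them. A limit on marker scores, added after the clusters were seen, kept the Wif1-led cluster (269 cells at day 7, 1 in non-lesional skin) out of the erythroid-like class.

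UMIs were summed over barcodes with at least 1 Pdgfra UMI and given as CPM. Log2 ratios used a pseudocount of 5 CPM, a call was 2-fold, and the background was all genes with at least 10 UMIs in the pair. Intervals are Poisson, Clopper-Pearson or conditional binomial. Levels of different genes are not compared, since 3′ capture differs. Gene positions come from GENCODE M21. The procedure was tested on simulated data. Alternatives included TMM from edgeR 4.0.16. Named genes are the 9 members, the 4 with the largest log2 ratio per list and pair, the 6 most alike and the 8 per direction in double-positive barcodes. Members and lists were chosen with earlier results of these data known. The values of 1 listed gene are not reported here.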

Additional observations from a re-analysis of the deposited data

How the results depend on the processing

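No paired analysis was possible because each group has 1 library. Members at least 2-fold lower in a wound library than in non-lesional skin numbered 9 at day 2 and 7 to 9 at day 7 under the planned scalings, gates, filters and pseudocount, where the median log2 ratio of all genes reached at most 0.23 (pseudocount of 1 CPM, day 7). Without the Smpd3-led cluster, an alternative chosen after seeing the data, they numbered 3 and 3. The ratio then turned positive at day 2 for Pi16 (0.022), Anxa3 (1.00) and Akr1c18 (0.94) and at day 7 for Sema3c (0.78), Efhd1 (0.32) and Akr1c18 (1.17). This alternative took cells almost only from non-lesional skin, so a rise of the ratios was built into it. Between the wound libraries 1 member in place of 2 was lower at day 7 in fibroblast-like clusters, after thinning and as a mean over barcodes. The number higher, 2, was 1 in fibroblast-like clusters (Bmp7 at 0.23), 1 without the Wif1-led cluster, also added later (Bmp7 at 0.27), and 3 with a pseudocount of 1 CPM. The share with Pi16 and Dpp4 moved with depth, at 1500 and 6000 UMIs to 17.9% and 38.6% for non-lesional skin, 1.30% and 8.42% for day 2 and 2.10% and 7.65% for day 7. In non-lesional skin it was 30.7% with at least 2 Pdgfra UMIs, 26.1% in fibroblast-like clusters and 31.5% with the gate on thinned counts, added later. The median co-detection ratio stayed, under every alternative run, between the median lower and median upper counting limits of the single pairs. These were 1.66 to 2.13 in non-lesional skin, 0.853 to 1.85 at day 2 and 2.08 to 3.20 at day 7. They have the width of a single pair, not of a median, and at day 2 they include 1, so this is a loose check. Naming each cell by its own markers left 0 members in place of 7 highest in fibroblast-like cells of non-lesional skin, and 2 in place of 1 at day 7. At day 7 the number was also 2 as a mean over cells and 0 with doublets kept. Depth limits Bmp7, Efhd1 and Limch1 at day 2, each under 1% of thinned barcodes.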
